A study of Mus musculus with 18 samples.

Results

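The difference between 2 immortalized mouse embryonic fibroblast (MEF) lines after 120 min of hydrogen peroxide is described here across genes and gene classes. One line was wild type (WT), and the other carried eIF2aS51A, a form of the translation factor eIF2α (S51A below). Both lines received 500 µM peroxide, an oxidant, for 120 min, and the labels list 3 samples of each line at that time, 6 of the 18 in the series. The other 12 samples are the same lines untreated or after 15 min. All entries of the 120 min table were taken, which are 6119 genes with a called difference, out of 10133 different symbols over the tables of the 3 times. Each entry gives 1 FPKM value per line, a read abundance adjusted for the length of the transcript and the size of the library. The spread between samples and the sequencing depth are unknown, so no standard deviation is given, and every "higher" or "lower" in S51A rests on the authors' call. Genes that were not called are not listed, and their levels are not known. The labels do not say whether samples are separate cultures, and the deposited q-values can then reflect no more than technical variation. The series design text speaks of duplicates, and with a single line for each genotype, the effect of the allele and that of the line cannot be told apart.

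eIF2 brings the initiator tRNA to the ribosome, and under stress a family of kinases phosphorylates a serine of its α subunit, which slows initiation at most messages. The message of the transcription factor ATF4 is translated better in that state, and ATF4 raises genes of amino acid supply, redox balance and cell death, a programme known as the integrated stress response. The elongation factor eEF2 is held back by another phosphorylation, made by the kinase eEF2K, and the series title names the crosstalk of these 2 modifications in oxidative stress. The S51A allele has alanine in place of serine 51 of eIF2α. The reference sequence around the affected codon is shown because it is the difference that defines the lines. It lies in exon 2 of Eif2s1 on the + strand of chr12 in mm10 (GENCODE M21), where the codon TCC spans 78866680 to 78866682 and is codon 52 when the initiator methionine is counted. The 51 coding bases below run from base 130 to base 180 of the 945 coding bases, and capitals mark the serine codon of the wild-type reference.
Eif2s1 codon: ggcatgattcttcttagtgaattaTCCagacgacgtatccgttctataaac
Eif2s1 itself was lower in S51A after 120 min, at 97.7 FPKM in WT against 57.7 FPKM in S51A, a 1.69-fold difference. A message level does not check the allele, and the reads behind it were not used here.

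At 120 min, 3113 of the 6119 listed genes were higher in S51A (50.9%) and 3006 were lower (49.1%). These shares are the background for every gene class below. The differences were often large: 26.5% of the listed genes were at least 2-fold higher and 20.9% at least 2-fold lower. The median fold was 2.01 among higher genes and 1.86 among lower genes, and the smallest listed fold was 1.30. Log2 ratios near 0 are therefore absent. The median log2 ratio was 0.40 over all listed genes but -0.39 over protein-coding genes, so its sign rests on a small majority. At least 4-fold differences numbered 515 higher and 233 lower. In the authors' deposited table the q-values of these genes ran from 0.000198, shared by 3041 entries, to 0.0499. The plot of the lines against each other at 120 min shows these genes as bands on either side of the diagonal.

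**Figure D1:**
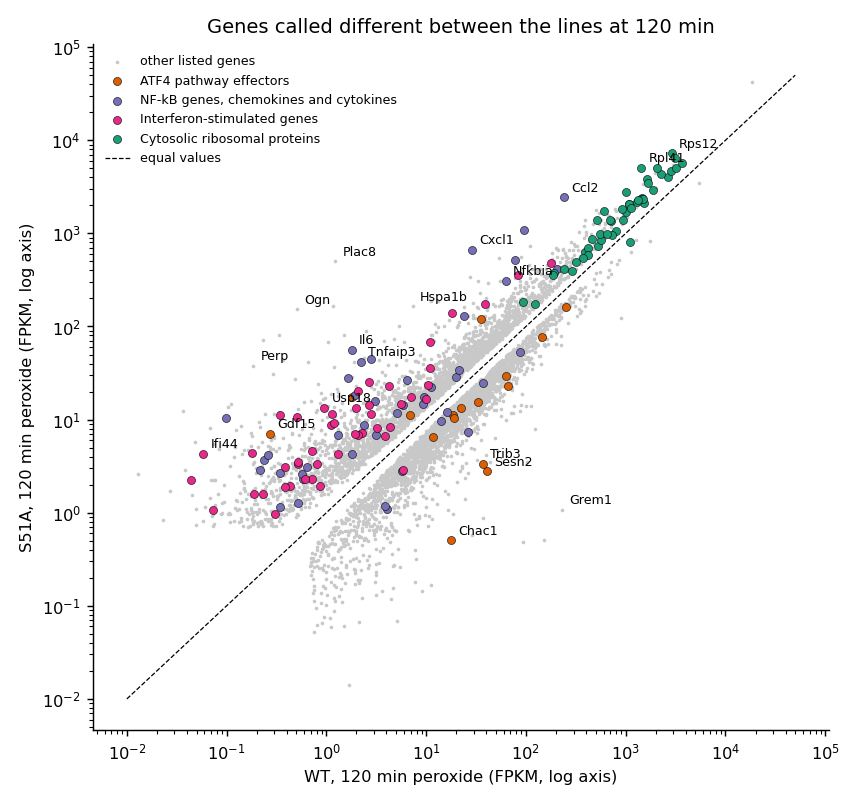
FPKM in WT (x axis, log scale) against FPKM in S51A (y axis, log scale) at 120 min for listed genes above 0 in both lines, 1 point per gene, with 4 gene classes coloured and a dashed line at equal values. Cytosolic ribosomal protein genes sit just above the line at high FPKM, most interferon-stimulated, NF-kB and chemokine genes lie above it and some NF-kB and cytokine genes below it, and Chac1, Trib3 and Sesn2 far below it.

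The most different genes were nearly silent in one line. Among genes with at least 10 FPKM in the higher line, Plac8, a small cysteine-rich protein gene, had the largest ratio, at 1.22 FPKM in WT against 501 FPKM in S51A. The surface glycoprotein gene Cd34 was at 0.230 FPKM in WT against 71.5 FPKM in S51A, and the secreted matrix regulator Cthrc1 was at 1.17 FPKM in WT against 167 FPKM in S51A. Both had differences of similar size in the 0 min table, where Plac8 was at 1.25 FPKM in WT against 232 FPKM in S51A. Isyna1, which makes inositol phosphate, was at 0.371 FPKM in WT against 43.7 FPKM in S51A. Slc1a6, a glutamate transporter gene, was at 0.112 FPKM in WT against 14.7 FPKM in S51A. Perp, a p53 and p63 target of cell junctions, was at 0.186 FPKM in WT against 37.8 FPKM in S51A, and Xist, the RNA of X chromosome inactivation, was at 0.0367 FPKM in WT against 12.4 FPKM in S51A. Neither Perp nor Xist was listed at 0 or 15 min. Isyna1 and Slc1a6 were far apart at 0 min too, at 0.283 and 0.346 FPKM in WT against 42.5 and 13.6 FPKM in S51A. On the low side, 3830403N18Rik was at 152 FPKM in WT against 0.511 FPKM in S51A. The membrane protein genes Gpm6b and Rftn1 were at 11.2 and 28.8 FPKM in WT against 0.167 and 0.578 FPKM in S51A. Pax1, a skeletal patterning factor, was at 36.8 FPKM in WT against 0.877 FPKM in S51A. Eps8, an actin and growth factor signalling adaptor, was at 123 FPKM in WT against 7.84 FPKM in S51A. At 0 min Gpm6b and Rftn1 were at 9.92 and 27.3 FPKM in WT against 0.193 and 0.420 FPKM in S51A. Pax1 and Eps8 were then at 48.5 and 151 FPKM in WT against 1.34 and 10.4 FPKM in S51A.

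A value of 0 was listed for 78 genes in WT and 32 genes in S51A, and no fold is given for them. The homeobox gene Rhox12 was listed at 0 in WT, with 194 FPKM in S51A. The tooth and stomach patterning factor Barx1 and the Eya family coactivator Eya2 were listed at 0 in WT, with 8.17 and 5.70 FPKM in S51A. All 3 were also at 0 in WT in the 0 and 15 min tables. In the other direction, the matrix metalloproteinase gene Mmp10 was listed at 12.2 FPKM in WT against 0 in S51A, and the skin envelope gene Lce1g at 10.7 FPKM in WT against 0 in S51A. Brinp1 and Ctnnd2, known from neurons, were listed at 6.19 and 4.38 FPKM in WT against 0 in S51A.

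Genes that control eIF2 divided between the lines, with 5 of 11 listed members higher in S51A and 6 lower (median log2 ratio -0.47), beside 50.9% higher over all listed genes. The higher members were mostly kinases and their modulators. Eif2ak3 encodes PERK, the eIF2α kinase of the endoplasmic reticulum, and was at 2.46 FPKM in WT against 8.75 FPKM in S51A. Eif2ak2 encodes PKR, the kinase that senses double-stranded RNA, and was at 9.92 FPKM in WT against 16.8 FPKM in S51A. Impact, an inhibitor of the amino acid-sensing kinase GCN2, was at 13.0 FPKM in WT against 22.8 FPKM in S51A. GCN2 itself, the product of Eif2ak4, had a message at 6.5 FPKM in WT against 3.71 FPKM in S51A, and its activator Gcn1l1 was at 20.5 FPKM in WT against 11.1 FPKM in S51A. Thus the message of GCN2, its activator and eIF2α was lower in S51A, and that of PERK, PKR and the GCN2 inhibitor higher. Several of these differences were already present in untreated cells. Eif2ak3 was then at 2.81 and 12.2 FPKM and Eif2ak2 at 10.8 and 25.8 FPKM, WT value first. Impact was at 8.46 and 25.5 FPKM and Eif2s1 at 91.8 and 45.3 FPKM. Eif2ak4 and Gcn1l1 were not listed at 0 min. Eif5, the GTPase-activating factor for eIF2, was at 197 FPKM in WT against 105 FPKM in S51A, against 175 and 79.3 FPKM untreated. Ppp1r15a, the stress-induced subunit of the eIF2α phosphatase, was not listed.

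On the elongation side, 7 of 12 listed members were higher and 5 lower (median log2 ratio 0.44). The direction turned with a q-value of at most 0.001, to 40% higher. It also turned after subtraction of the median of listed genes in the same tertile of locus length, to a median of -0.12. Eef2k, the eEF2 kinase, was at 3.71 FPKM in WT against 1.28 FPKM in S51A, a 2.89-fold difference. It was already lower in S51A at 0 min, at 4.14 FPKM in WT against 2.23 FPKM in S51A. Its activator calmodulin was on the other side, with Calm2 at 324 FPKM in WT against 724 FPKM in S51A. AMPK, which activates eEF2K when energy is short, had catalytic subunits lower: Prkaa2 was at 2.66 FPKM in WT against 0.651 FPKM in S51A, and Prkaa1 at 29.4 FPKM in WT against 20.7 FPKM in S51A. Its regulatory subunit gene Prkab2 was higher, at 0.847 FPKM in WT against 2.01 FPKM in S51A. Among the elongation factors, Eef1a1, which delivers tRNAs to the ribosome, was at 5367 FPKM in WT against 3517 FPKM in S51A, and Eef1b2, its exchange factor, at 422 FPKM in WT against 724 FPKM in S51A. Eef2 was not listed at any time. Of 19 other initiation factor genes, 7 were higher and 12 lower, among them the scaffold gene Eif4g2 at 340 FPKM in WT against 153 FPKM in S51A and the eIF3 subunit gene Eif3c at 263 FPKM in WT against 109 FPKM in S51A. The cap-binding family member Eif4e3 was higher, at 1.60 FPKM in WT against 7.89 FPKM in S51A.

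Effector genes of the ATF4 pathway were lower in S51A for 12 of 17 listed members and higher for 5, with a median log2 ratio of -0.88. At 0 min 10 of 16 had been lower (median log2 ratio -0.615), where 50.4% of all listed genes were lower. Of the members at least 2-fold apart at 120 min, 4 were higher and 6 lower. ATF4 with a C/EBP partner is known to bind a composite element, searched here as TGATGNAA on both strands. The windows were RefSeq's, from 250 bases before to 50 bases after each gene start (GRCm38.p6). Promoters are shown for the effector gene Chac1 and the amino acid transporter gene Slc7a11. They were picked for large differences among members with a match before the start, so a match in them was fixed in advance. The parts before the start are printed with matches in capitals, for Chac1 at chr2:119350992-119351241 (+ strand) and for Slc7a11 at chr3:50443614-50443863 (- strand).
Chac1: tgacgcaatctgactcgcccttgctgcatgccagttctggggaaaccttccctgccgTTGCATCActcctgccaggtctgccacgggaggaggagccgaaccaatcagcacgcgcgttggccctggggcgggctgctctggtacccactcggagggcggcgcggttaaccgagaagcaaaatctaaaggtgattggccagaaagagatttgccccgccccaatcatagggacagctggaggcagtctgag
Slc7a11: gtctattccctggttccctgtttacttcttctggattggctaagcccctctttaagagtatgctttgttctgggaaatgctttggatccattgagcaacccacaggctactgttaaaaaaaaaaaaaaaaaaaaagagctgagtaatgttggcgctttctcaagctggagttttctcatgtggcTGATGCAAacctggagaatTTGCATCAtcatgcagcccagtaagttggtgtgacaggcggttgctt
Slc7a11 has 2 matches, on opposite strands, 66 and 47 bases before its start, and Chac1 has 1, 193 bases before. Over the effector, amino acid enzyme, amino acid transporter and cytosolic tRNA synthetase lists, 41 of 58 listed members had a window, and 24.1% of their 54 windows held the motif, against 3.97% of all 32851 windows. Of the 13 members with a match, 11 were lower in S51A and 2 were higher. With or without a match, 12 of 17 effector, 14 of 17 enzyme, 11 of 12 transporter and 14 of 16 synthetase members were lower. Whether direction goes with the motif was not tested. A match is a sequence description and not a binding site.

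Within the pathway, the glutathione-degrading enzyme gene Chac1 differed 35.0-fold, at 17.6 FPKM in WT against 0.503 FPKM in S51A. The leucine sensor gene Sesn2 differed 14.6-fold, at 40.5 FPKM in WT against 2.77 FPKM in S51A, and the pseudokinase gene Trib3 10.9-fold, at 36.8 FPKM in WT against 3.36 FPKM in S51A. These differences were smaller in the 0 min table, whose values may have been normalized separately: Sesn2 was then at 8.69 and 4.38 FPKM and Trib3 at 9.65 and 3.03 FPKM, WT value first. So the WT value was about the same at both times for Chac1 (16.8 FPKM at 0 min) and higher at 120 min for Sesn2 and Trib3, while the S51A value of Chac1 was lower at 120 min (4.41 FPKM at 0 min). The higher members are also stress genes. Gdf15, a stress cytokine, was at 0.274 FPKM in WT against 7.06 FPKM in S51A. Pmaip1, which encodes the death protein NOXA, was at 1.79 FPKM in WT against 17.6 FPKM in S51A. Nupr1, a stress-induced chromatin protein gene, was at 35.5 FPKM in WT against 120 FPKM in S51A, and Tnfrsf10b, a receptor for TRAIL, at 6.87 FPKM in WT against 11.1 FPKM in S51A. Pmaip1, Nupr1 and Tnfrsf10b were already higher in S51A at 0 min. The hormone gene Fgf21 was listed at 0 in WT, with 0.859 FPKM in S51A.

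Stress transcription factors of the ATF and C/EBP families were higher for 4 of 11 and lower for 7, and the largest differences were in higher members. Cebpd, induced by cytokines, was at 11.1 FPKM in WT against 190 FPKM in S51A, and the membrane-bound factor Creb3l1 at 4.96 FPKM in WT against 38.3 FPKM in S51A. Atf3, a repressor that ATF4 and other stress signals induce, was at 15.3 FPKM in WT against 44.6 FPKM in S51A. Atf3 had been at 1.55 and 3.18 FPKM in the untreated lines, so it was listed higher in S51A at both times at very different levels. Cebpg, a partner of ATF4, was at 22.9 FPKM in WT against 12.5 FPKM in S51A, having been higher in S51A at 0 min. Atf4 and Ddit3 were not listed at 120 min.

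Genes of amino acid supply were mostly lower. Enzymes of serine, asparagine, proline and transsulfuration metabolism were lower for 14 of 17 listed members (median log2 ratio -0.84), against 18 of 23 in the 0 min table, where 50.4% of all listed genes were lower and 49.6% higher. Shmt1, which moves one-carbon units from serine to folate, was at 58.5 FPKM in WT against 22.8 FPKM in S51A. The serine synthesis gene Psat1 was at 313 FPKM in WT against 164 FPKM in S51A, and the folate enzyme gene Mthfd1 at 63.1 FPKM in WT against 31.8 FPKM in S51A. The exceptions were the transaminase genes Gpt and Bcat2, at 2.53 and 12.4 FPKM in WT against 5.13 and 18 FPKM in S51A, and the proline breakdown gene Aldh4a1, at 4.38 FPKM in WT against 6.92 FPKM in S51A. Amino acid transporters were lower for 11 of 12 (median log2 ratio -1.05), against 7 of 13 in the 0 min table. Slc7a11, whose product imports cystine for glutathione synthesis, stood at 3.14 FPKM in WT against 0.232 FPKM in S51A. Slc7a1, a carrier of arginine and lysine, was at 29.7 FPKM in WT against 9.19 FPKM in S51A, and Slc38a1, a glutamine carrier, at 22.3 FPKM in WT against 7.89 FPKM in S51A. Slc7a2, another cationic carrier, was the exception at 5.24 FPKM in WT against 25.1 FPKM in S51A. Cytosolic tRNA synthetases were lower for 14 of 16 (median log2 ratio -0.67), against 21 of 22 at 0 min (median -0.75). Cars was at 62.2 FPKM in WT against 24.1 FPKM in S51A and Iars at 85.6 FPKM in WT against 34.5 FPKM in S51A. Eprs and the scaffold gene Aimp1 were higher, at 36.5 and 103 FPKM in WT against 75.6 and 148 FPKM in S51A. Their mitochondrial counterparts were lower for 6 of 7, the exception being Tars2 at 13.7 FPKM in WT against 21.0 FPKM in S51A.

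Genes that make the ribosome and genes that encode it were on opposite sides. Ribosome biogenesis and RNA polymerase I genes were lower for 35 of 39 listed members (median log2 ratio -0.78), after all 47 listed had been lower at 0 min (median -1.20). Heatr1, a processing factor of the small subunit, was at 28.6 FPKM in WT against 7.73 FPKM in S51A, and the polymerase I subunit gene Polr1b at 17.6 FPKM in WT against 5.74 FPKM in S51A. The nucleolar genes Noc2l and Mybbp1a were at 198 and 223 FPKM in WT against 64.9 and 79.3 FPKM in S51A. The 4 higher members, Nop10, Gar1, Utp3 and Polr1d, differed by 1.34 to 1.49-fold. Cytosolic ribosomal proteins were higher for 47 of 48 (median log2 ratio 0.75). Rpl41 was at 1428 FPKM in WT against 5078 FPKM in S51A. Rpl37a was at 605 FPKM in WT against 1746 FPKM in S51A and Rps12 at 2896 FPKM in WT against 7281 FPKM in S51A. At 0 min all 69 listed ribosomal protein genes had been lower in S51A, and 44 of the 45 listed at both times changed sides. Reads of ribosomal protein genes can be shared with their processed pseudogenes, so single values are uncertain.

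Mitochondrial, proteasome and small nucleolar RNA host classes also had members that changed sides. Nuclear genes for oxidative phosphorylation subunits were higher for 50 of 53 (median log2 ratio 0.92), and 34 of the 37 listed at both times had been lower at 0 min. The complex I gene Ndufa5 was at 115 FPKM in WT against 410 FPKM in S51A, the cytochrome oxidase gene Cox4i1 at 545 FPKM in WT against 1675 FPKM in S51A, and the ATP synthase gene Atp5e at 340 FPKM in WT against 1031 FPKM in S51A. The exceptions were larger subunits: Ndufs1 at 64.4 FPKM in WT against 49.2 FPKM in S51A, Uqcrc1 at 239 FPKM in WT against 149 FPKM in S51A, and Uqcrc2 at 91.1 FPKM in WT against 62.2 FPKM in S51A. Mitochondrial ribosomal proteins were higher for 33 of 48 and lower for 15, with Mrps21 at 99.0 FPKM in WT against 296 FPKM in S51A. Of the 34 listed at 0 min too, 19 had moved from lower to higher. Constitutive proteasome genes were higher for 13 of 17, after 31 of 31 had been lower at 0 min. The core subunit gene Psmb4 was at 280 FPKM in WT against 815 FPKM in S51A, and the lid subunit gene Psmd11 was lower, at 105 FPKM in WT against 59.7 FPKM in S51A. Small nucleolar RNA host transcripts were higher for 6 of 8, with Dancr at 8.57 FPKM in WT against 29.0 FPKM in S51A, while Snhg5 and Snhg12 were lower.

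Transcript length moved with these classes and is given beside them. The median spliced length was 0.871 kb for the cytosolic ribosomal, 0.861 kb for the oxidative phosphorylation, 1.22 kb for the mitochondrial ribosomal and 1.32 kb for the proteasome genes, against 3.26 kb over all listed genes and 2.95 kb for ribosome biogenesis genes. Of all listed genes with a GENCODE transcript, 90.1% of the shortest decile were higher in S51A at 120 min. After subtraction of the median of listed genes in the same tertile of locus length, the median log2 ratio was 0.10 for cytosolic ribosomal proteins, 0.31 for oxidative phosphorylation, -0.01 for mitochondrial ribosomal proteins and 0.01 for the proteasome. It was -1.08 for ribosome biogenesis, -1.30 for ATF4 effectors, -1.11 for amino acid enzymes, -1.02 for amino acid transporters and -0.96 for cytosolic tRNA synthetases. Because log2 ratios near 0 are absent, medians can jump with span, from 0.45 to -0.41 between deciles 5 and 6 of locus length. The part of transcript length in these class values was not tested.

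**Figure D2:**
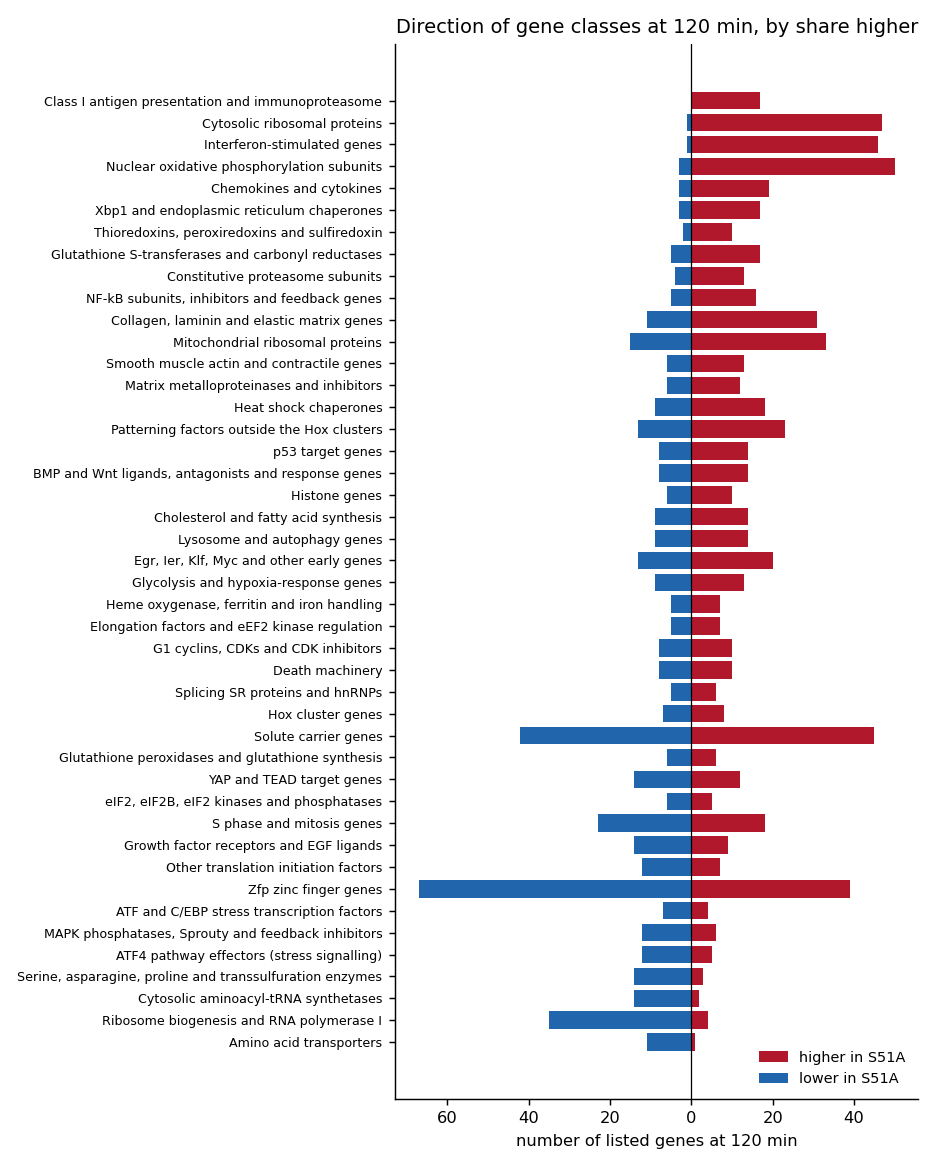
Number of listed genes at 120 min that were higher (red, to the right of 0) or lower (blue, to the left of 0) in S51A for each gene class with at least 10 listed members, ordered by the share higher. Antigen presentation, ribosomal, interferon and oxidative phosphorylation genes stand at the top, and amino acid transporters, ribosome biogenesis, tRNA synthetase and amino acid enzyme genes at the bottom.

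Inflammatory genes stood mostly higher in S51A after 120 min, and many were also higher in untreated cells. NF-kB is a transcription factor that cytokines, infection and oxidants activate and that drives chemokines and its own inhibitors. Promoters are shown for Il6 and Cxcl1, with matches to the kB motif in capitals. They were picked for large differences among members with a match before the start, so a match in them was fixed in advance. They are RefSeq windows in GRCm38.p6, the Il6 stretch at chr5:30012864-30013113 and the Cxcl1 stretch at chr5:90890995-90891244, both on the + strand and ending at the base before the gene start.
Il6: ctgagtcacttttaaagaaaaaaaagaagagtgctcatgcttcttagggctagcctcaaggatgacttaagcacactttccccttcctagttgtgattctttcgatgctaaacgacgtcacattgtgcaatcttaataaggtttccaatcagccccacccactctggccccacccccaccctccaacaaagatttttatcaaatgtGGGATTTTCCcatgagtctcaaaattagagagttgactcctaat
Cxcl1: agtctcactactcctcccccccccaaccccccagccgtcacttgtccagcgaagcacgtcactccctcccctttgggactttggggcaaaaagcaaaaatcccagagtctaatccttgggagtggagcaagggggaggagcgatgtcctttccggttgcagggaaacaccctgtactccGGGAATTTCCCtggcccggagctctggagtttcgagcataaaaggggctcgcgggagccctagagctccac
The motif starts 44 bases before the start of Il6, and overlapping matches start 71 and 70 bases before that of Cxcl1. Over the chemokine, cytokine and NF-kB lists, 28 of 43 listed members had a window, and 40.6% of their 32 windows held the motif on either strand, against 8.46% of all windows. Of the 13 members with a match, 10 were higher in S51A and 3 lower. With or without a match, 19 of 22 chemokine and cytokine members and 16 of 21 NF-kB members were higher. Whether direction goes with the motif was not tested.

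Chemokine and cytokine genes were higher for 19 of 22 listed members, with a median log2 ratio of 2.40. At 0 min 13 of 21 had been higher (median log2 ratio 0.82), where 49.6% of all listed genes were higher. Il6 was at 1.79 FPKM in WT against 56.5 FPKM in S51A, against 1.49 and 2.64 FPKM untreated. Ccl2, which recruits monocytes, was at 242 FPKM in WT against 2436 FPKM in S51A, after 419 and 231 FPKM at 0 min, so it changed sides between the tables. Its neighbour in function Ccl7 was at 95.7 FPKM in WT against 1098 FPKM in S51A, and was not listed at 0 min. The neutrophil chemokine gene Cxcl1 was at 28.8 FPKM in WT against 666 FPKM in S51A, against 36.0 and 258 FPKM untreated. Cxcl5 and Cxcl2 were low in WT, at 0.0981 and 0.238 FPKM in WT against 10.5 and 3.66 FPKM in S51A, and the authors' deposited table gave them q-values of 0.0484 and 0.0181. Exceptions were Il11, a fibroblast cytokine, at 4.08 FPKM in WT against 1.10 FPKM in S51A, Il33, an alarmin, at 3.84 and 1.17 FPKM, and Csf1, the macrophage growth factor, at 88.0 and 53.4 FPKM.

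NF-kB subunits, inhibitors and feedback genes were higher for 16 of 21 (median log2 ratio 1.13). At 0 min 19 of 24 had been higher (median log2 ratio 0.685), and 15 of the 17 listed at both times were higher at both. The feedback inhibitor gene Nfkbia was at 62.7 FPKM in WT against 309 FPKM in S51A, against 39.1 and 61 FPKM untreated. Tnfaip3, a deubiquitinase that ends NF-kB signalling, was at 2.23 FPKM in WT against 41.9 FPKM in S51A, against 2.43 and 15.8 FPKM untreated. Nfkbiz, a nuclear cofactor, was at 1.66 FPKM in WT against 27.7 FPKM in S51A, against 6.36 and 26.5 FPKM untreated, so for this gene the tables differ in the WT value. The adhesion molecule genes Vcam1 and Icam1 were at 2.79 and 0.215 FPKM in WT against 45.3 and 2.89 FPKM in S51A. Vcam1 had been as far apart untreated, at 3.53 and 49.9 FPKM. The 5 lower members included core parts of the pathway: Rela, the p65 subunit, at 37.3 FPKM in WT against 24.8 FPKM in S51A, and the kinase gene Ikbkb at 14.0 FPKM in WT against 9.71 FPKM in S51A. Tnfaip2, Tnip2 and Cyld were the others.

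Early response genes, which growth factors and stress switch on within minutes, were divided within each family. The AP-1 family had 5 of 8 members higher. Junb was at 88.6 FPKM in WT against 556 FPKM in S51A, and Fos at 3.81 FPKM in WT against 20.5 FPKM in S51A. Jun and Maff changed sides: Jun was at 54.6 FPKM in WT against 97.7 FPKM in S51A after 52.0 and 25.8 FPKM at 0 min, and Maff at 31.8 FPKM in WT against 61 FPKM in S51A after 23.8 and 8.0 FPKM. Fosl1 stayed lower, at 58.5 FPKM in WT against 22.8 FPKM in S51A, with a smaller gap than at 0 min (104 and 8.69 FPKM). Of the Egr, Ier, Klf, Myc and other early genes, 20 of 33 were higher and 13 lower, while 24 of 36 had been lower at 0 min. Egr2 was at 0.611 FPKM in WT against 9.0 FPKM in S51A, Ier2 at 29.2 FPKM in WT against 180 FPKM in S51A, and Zfp36, which destabilizes cytokine messages, at 3.89 FPKM in WT against 29.9 FPKM in S51A. Myc, a growth regulator, was at 60.5 FPKM in WT against 99.7 FPKM in S51A after 96.3 and 26.7 FPKM at 0 min. After the subtraction for locus length the median log2 ratio of this early class was -0.05, against 0.72 without it.

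Feedback genes of the MAP kinase pathway did not follow the early genes. Of 18 listed phosphatases, Sprouty proteins and related inhibitors, 12 were lower in S51A, each at least 2-fold, and 6 were higher (median log2 ratio -1.65). At 0 min 16 of 19 had been lower (median log2 ratio -1.69), so the class difference was already present in untreated cells. The ERK-induced factors Etv4 and Etv1 were at 39.7 and 1.18 FPKM in WT against 4.14 and 0.0878 FPKM in S51A. Dusp4, a nuclear phosphatase of ERK, was at 9.65 FPKM in WT against 0.953 FPKM in S51A, and Spred2, a Ras pathway inhibitor, at 9.85 FPKM in WT against 2.22 FPKM in S51A. Dusp6, the cytosolic ERK phosphatase, had moved to the higher side, at 7.16 FPKM in WT against 12 FPKM in S51A after 33.8 and 9.45 FPKM at 0 min. Growth factor receptors and ligands were lower for 14 of 23, with Fgf10 at 8.11 FPKM in WT against 0.742 FPKM in S51A, but Fgf7 at 11.8 FPKM in WT against 71.0 FPKM in S51A and Egfr at 1.25 FPKM in WT against 6.11 FPKM in S51A. Targets of YAP and TEAD, which report cell tension, were split 12 higher to 14 lower. In that class the matricellular gene Cyr61 was at 27.5 FPKM in WT against 338 FPKM in S51A, against 206 and 263 FPKM untreated.

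Interferon-stimulated genes are antiviral and antigen-presentation genes that STAT and IRF factors switch on. They were higher in S51A for 46 of 47 listed members, 43 of them at least 2-fold, with a median log2 ratio of 2.31. The same class had 52 of 53 listed members higher at 0 min (median log2 ratio 2.24), so the difference was already present in untreated cells. Interferon factors are known to bind a repeat, searched as a pair of TTTC with any 2 bases between, on both strands, and marked by capitals. The promoter of Irgm2, an interferon-induced GTPase, is shown. It was picked for its large ratio among members with a match before the start, so a match in it was fixed in advance. The stretch is RefSeq's in GRCm38.p6, at chr11:58214727-58214976 on the + strand.
Irgm2: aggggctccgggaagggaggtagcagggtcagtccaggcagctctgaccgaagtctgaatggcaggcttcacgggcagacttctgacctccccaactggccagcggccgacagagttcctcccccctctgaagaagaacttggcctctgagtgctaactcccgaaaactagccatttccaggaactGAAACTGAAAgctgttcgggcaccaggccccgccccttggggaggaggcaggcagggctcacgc
The match starts 64 bases before the gene start. Of the 63 listed interferon and antigen-presentation members, 51 had a window, and 41.3% of their 63 windows held the motif, against 3.44% of all windows. All 25 members with a match were higher in S51A. With or without a match, 46 of 47 interferon and 17 of 17 antigen-presentation members were higher, so this count does not set the matched members apart.

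Irgm2 itself was at 0.0439 FPKM in WT against 2.27 FPKM in S51A. Ifi44 was at 0.0583 FPKM in WT against 4.29 FPKM in S51A, and Ifi47, another GTPase gene, at 0.344 FPKM in WT against 11.2 FPKM in S51A. Such ratios rest on very low WT values, and the authors' deposited table gave q-values of 0.0375 for Irgm2 and 0.0265 for Ifi44. The RNA sensor gene Oas1a was at 0.179 FPKM in WT against 4.38 FPKM in S51A. Oasl1, a repressor of interferon production, was the one lower member, at 5.90 FPKM in WT against 2.91 FPKM in S51A. Class I antigen presentation genes were all higher, 17 of 17 (median log2 ratio 1.96). At 0 min 16 of 16 had been higher (median log2 ratio 1.715), so this difference too was already present in untreated cells. The immunoproteasome subunit gene Psmb8 was at 0.334 FPKM in WT against 81.0 FPKM in S51A, the class I heavy chain gene H2-K1 at 13.3 FPKM in WT against 186 FPKM in S51A, and the peptide transporter gene Tap2 at 1.27 FPKM in WT against 21.3 FPKM in S51A. The constitutive proteasome subunits above differed far less, by at most 2.91-fold.

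Redox genes divided by branch. Thioredoxin, peroxiredoxin and related genes were higher for 10 of 12 (median log2 ratio 1.00, or 0.31 after the subtraction for locus length), after 10 of 15 had been lower at 0 min. Txn1, the cytosolic thioredoxin, was at 564 FPKM in WT against 1389 FPKM in S51A, having been at 609 and 431 FPKM untreated. Its reductase gene Txnrd1 and the peroxiredoxin gene Prdx6 were the lower members, at 136 and 123 FPKM in WT against 104 and 83.3 FPKM in S51A. Txnip, the thioredoxin-binding arrestin, was at 1.54 FPKM in WT against 6.06 FPKM in S51A, each below the untreated value, 3.89 FPKM in WT against 29.7 FPKM in S51A. Glutathione synthesis and peroxidase genes, a list that also holds Chac1 and Slc7a11, were split 6 to 6. Gclc, the rate-limiting enzyme of glutathione synthesis, was at 38.3 FPKM in WT against 11.6 FPKM in S51A. Glutathione S-transferases and carbonyl reductases were higher for 17 of 22 (median log2 ratio 1.70), led by the reductase gene Cbr2 at 0.655 FPKM in WT against 41.4 FPKM in S51A and the transferase gene Gstt1 at 1.49 FPKM in WT against 81.0 FPKM in S51A. These were as far apart at 0 min, with Gstt1 at 2.13 and 92.4 FPKM. The superoxide dismutase gene Sod1 was at 617 FPKM in WT against 1287 FPKM in S51A, and G6pdx, the entry enzyme of NADPH supply, at 58.1 FPKM in WT against 30.3 FPKM in S51A. Iron and heme genes were 7 higher and 5 lower, and the ferrireductase gene Steap3 was the furthest apart, at 7.36 FPKM in WT against 1.27 FPKM in S51A. Hmox1 and Nqo1 were not listed at 120 min.

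Chaperones were mostly higher. Heat shock genes were higher for 18 of 27 and lower for 9, against 11 of 38 higher at 0 min. Of the 21 listed at both times, 4 had moved from lower to higher. The inducible HSP70 gene Hspa1b was at 7.31 FPKM in WT against 165 FPKM in S51A, and its near-identical neighbour Hspa1a, which may share its reads, at 0.289 FPKM in WT against 30.7 FPKM in S51A. The small chaperone gene Hspb1 was at 20.3 FPKM in WT against 97.7 FPKM in S51A, and the co-chaperone gene Dnajb1 at 30.9 FPKM in WT against 78.2 FPKM in S51A. The class median log2 ratio was 0.64, and -0.12 after the subtraction for locus length. Endoplasmic reticulum chaperone and XBP1 genes were higher for 17 of 20 (median log2 ratio 0.82, or 0.28 after the subtraction for locus length). At 0 min 20 of 24 had been higher (median log2 ratio 0.585), and 12 of the 14 listed at both times were higher at both. Fkbp14, a collagen-folding isomerase, was at 3.81 FPKM in WT against 17.8 FPKM in S51A, and the translocon subunit gene Sec61b at 128 FPKM in WT against 391 FPKM in S51A. Ern1, which encodes the sensor IRE1 that splices Xbp1, was lower, at 7.57 FPKM in WT against 2.27 FPKM in S51A. Herpud1, a degradation factor that ATF4 also regulates, had changed sides, at 32.9 FPKM in WT against 15.5 FPKM in S51A after 26.4 and 36.3 FPKM at 0 min. The calnexin gene Canx was the other lower member.

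Growth and death genes showed no common direction. Targets of p53 were 14 higher and 8 lower, with Fas, another such receptor, at 2.87 FPKM in WT against 46.5 FPKM in S51A and the antiproliferative gene Btg2 at 2.93 FPKM in WT against 15.6 FPKM in S51A. At 0 min Fas was at 1.80 and 19.6 FPKM and Btg2 at 1.89 and 6.77 FPKM, WT value first. Mdm2, which degrades p53, was at 63.1 FPKM in WT against 82.7 FPKM in S51A. Death machinery was 10 higher and 8 lower. The survival gene Bcl2l1 was lower, at 26.4 FPKM in WT against 7.36 FPKM in S51A, and the survival gene Mcl1 higher, at 28.8 FPKM in WT against 74.5 FPKM in S51A. Untreated, Bcl2l1 was at 45.3 and 15.5 FPKM and Mcl1 at 50.2 and 65.8 FPKM, WT value first. The executioner caspase gene Casp6 was at 6.23 FPKM in WT against 26.9 FPKM in S51A, against 9.38 and 23.4 FPKM untreated. Among cell cycle genes, the G1 cyclin genes Ccnd1 and Ccnd2 were at 112 and 35.3 FPKM in WT against 14.0 and 5.98 FPKM in S51A, and the inhibitor genes Cdkn1c and Cdkn2a at 6.06 and 234 FPKM in WT against 68.1 and 666 FPKM in S51A. S phase and mitosis genes were 18 higher and 23 lower, from Pttg1, the securin, at 46.5 FPKM in WT against 174 FPKM in S51A, to the proliferation marker Mki67 at 39.9 FPKM in WT against 15.5 FPKM in S51A. Histone genes were 10 higher and 6 lower, and 6 of the 16 were at 0 in a line. Most histone messages lack the poly(A) tail by which the RNA was selected, so those levels are uncertain.

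The lines also differed in the matrix and in positional identity, mostly in the same direction as before treatment. Collagen, laminin and elastic matrix genes were higher for 31 of 42 listed members (median log2 ratio 1.34), and all 31 that were higher had been higher at 0 min. Emilin1, an elastic fibre protein gene, was at 3.81 FPKM in WT against 70.5 FPKM in S51A, and Tgfbi, an adhesion protein gene, at 4.79 FPKM in WT against 73.5 FPKM in S51A. Periostin, encoded by Postn, was at 0.807 FPKM in WT against 12.7 FPKM in S51A. These genes are long, with a median spliced length of 5.99 kb, and lie on the higher side where long genes were mostly lower. Proteoglycan genes were split, with Ogn at 0.511 FPKM in WT against 152 FPKM in S51A and Dcn at 56.1 FPKM in WT against 10.9 FPKM in S51A. The stromelysin gene Mmp3 and the collagenase gene Mmp13 were at 102 and 50.9 FPKM in WT against 3.48 and 4.72 FPKM in S51A, whereas the membrane-bound Mmp14 was at 30.9 FPKM in WT against 122 FPKM in S51A. The BMP antagonist gene Grem1 was at 232 FPKM in WT against 1.08 FPKM in S51A. The Wnt pathway genes Dkk3 and Wisp2 were at 0.102 and 2.50 FPKM in WT against 13.7 and 88.6 FPKM in S51A. Hox genes were 8 higher and 7 lower, and the lower ones included the posterior genes Hoxc9, Hoxc10, Hoxc11 and Hoxc13, of which Hoxc10 was at 24.6 FPKM in WT against 1.40 FPKM in S51A. Hoxd9, also posterior, went the other way, listed at 0 in WT with 1.75 FPKM in S51A. Smooth muscle and contractile genes were higher for 13 of 19, with the actin gene Acta2 at 24.1 FPKM in WT against 163 FPKM in S51A and calponin, Cnn1, at 0.697 FPKM in WT against 15.8 FPKM in S51A.

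Lipid and energy genes were mixed. Cholesterol and fatty acid synthesis genes were 14 higher and 9 lower. The fatty acid synthase gene Fasn was at 73.5 FPKM in WT against 11.9 FPKM in S51A, and Acaca, the step before it, at 8.94 FPKM in WT against 3.10 FPKM in S51A, while Fdps, an enzyme of the sterol branch, was at 35.8 FPKM in WT against 91.1 FPKM in S51A. Prostaglandin synthesis and receptor genes were 5 higher and 3 lower. Both cyclooxygenase genes were lower, Ptgs1 at 12.9 FPKM in WT against 2.00 FPKM in S51A and Ptgs2 at 111 FPKM in WT against 44.3 FPKM in S51A. Ptgs2 had been further apart at 0 min, at 142 and 8.69 FPKM. Ptgis, the prostacyclin synthase gene, was higher, at 15.5 FPKM in WT against 41.4 FPKM in S51A. Glycolysis and hypoxia genes were 13 higher and 9 lower, with the lactate dehydrogenase gene Ldhb at 18.8 FPKM in WT against 135 FPKM in S51A and the angiogenic factor gene Vegfa at 66.3 FPKM in WT against 22.8 FPKM in S51A. Lysosome and autophagy genes were 14 higher and 9 lower, the protease gene Ctsc at 20.3 FPKM in WT against 2.13 FPKM in S51A and the autophagosome gene Map1lc3b at 27.3 FPKM in WT against 71.5 FPKM in S51A. Zinc finger genes of the Zfp series, many of them repressors, were lower for 67 of 106, after 175 of 213 had been higher at 0 min. Their median spliced length was 3.72 kb. Of the 71 listed at both times, 16 had moved from higher to lower and 2 from lower to higher.

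Most of the line difference was present before treatment. The 120 min and 0 min tables shared 4328 symbols, 70.9% of those at 120 min and 57.3% of those at 0 min. Of these, 1751 were higher at both times and 1793 lower at both, while 449 went from lower to higher and 335 from higher to lower. The 15 min table shared 4962 symbols with 179 and 75 such switches. Of 3826 genes listed at all 3 times, 3485 kept their direction (91.1%), and 236 had one direction at 0 and 15 min and the opposite one at 120 min. A further 590 genes were listed at 120 min only, 336 higher and 254 lower, leaving out symbols that start with a digit, which the 0 min table does not hold. The tables came from different samples of the same lines and may have been normalized separately. The plot of ratios at 0 and 120 min shows the 2 switched groups as short blocks off the diagonal.

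**Figure D3:**
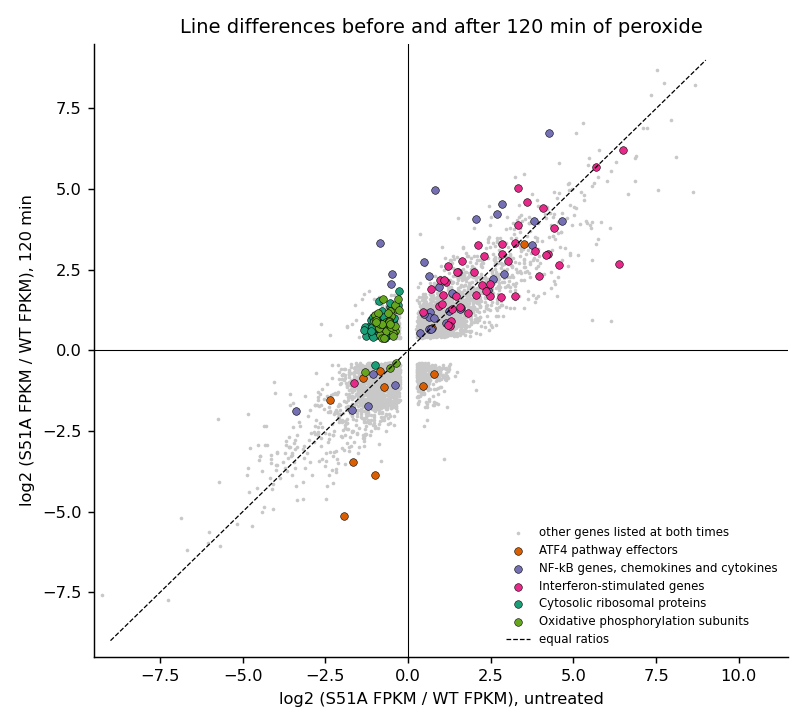
log2 ratio of S51A to WT FPKM in untreated cells (x axis) against the same ratio at 120 min (y axis) for genes listed at both times and above 0 in both lines, 1 point per gene, with 5 classes coloured and a dashed line at equal ratios. Ribosomal protein and oxidative phosphorylation genes lie in the upper left, lower in S51A before treatment and higher after it, while interferon-stimulated genes lie along the diagonal in the upper right.

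Ccl2 had the largest change among the genes that switched to the higher side. It was followed by the noncoding RNA Dancr, the pleckstrin-domain gene Phlda1, the early gene Ier3, the EGF receptor ligand gene Hbegf and the phosphatase gene Dusp6. Ier3, an apoptosis modulator, was at 86.2 FPKM in WT against 307 FPKM in S51A after 149 and 65.8 FPKM at 0 min. Errfi1, an inhibitor of the EGF receptor, was at 23.4 FPKM in WT against 41.4 FPKM in S51A after 85.0 and 26.4 FPKM. In Errfi1, Hbegf and Dusp6 the WT value was lower at 120 min than at 0 min and the S51A value higher. Pdpr, a regulator of pyruvate dehydrogenase, had the largest change among the genes that switched to the lower side, at 5.28 FPKM in WT against 1.55 FPKM in S51A after 3.39 and 7.73 FPKM. Klf3, a transcriptional repressor, was at 6.59 FPKM in WT against 1.47 FPKM in S51A after 9.71 and 14.5 FPKM at 0 min. The ubiquitin ligase gene Cbl was at 7.67 FPKM in WT against 2.25 FPKM in S51A after 6.06 and 9.0 FPKM, and the exonuclease gene Xrn1, which degrades messages, at 6.19 FPKM in WT against 1.96 FPKM in S51A after 5.82 and 8.63 FPKM. Genes that went from lower to higher had a median locus of 7.05 kb, and those that went from higher to lower 77.9 kb, against 25.4 kb over the genes listed at both times.

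Direction at 120 min went with gene length over the whole table. By deciles of the spliced length of the longest coding transcript (GENCODE M21, matched for 5780 of 6105 genes), the share of listed genes higher in S51A was 90.1% in the shortest decile, 0.371 to 1.25 kb, and 15.4% in the longest, 7.21 to 40.4 kb. Every step between neighbouring deciles was downward. In untreated cells the order was the opposite, with 23.1% higher in the shortest decile and 71.8% in the longest. At 15 min the first 9 deciles were near the 49.9% of all listed genes and the longest was lower. Length of the deposited locus gave 83.1% in the shortest and 27.3% in the longest decile at 120 min. Within genes of long span, 70.0% of those with a short transcript were higher against 20.7% of those with a long one, and within genes of short span 79.8% against 40.7%. So the order by transcript length held within these tertiles of span, which are wide, and span still varied within each. Genes with 1 exon were higher in 70.7% of cases and genes with 20 or more exons in 20.7%. Across 5688 genes at 120 min, Spearman's rho of the log2 ratio was -0.43 with spliced length and -0.34 with span, as a description, since genes share libraries and are not independent replicates. The same rho with spliced length was 0.25 at 0 min and -0.07 at 15 min. RNA quality and fragment length of the libraries were not used here, and their part in this pattern was not tested.

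**Figure D4:**
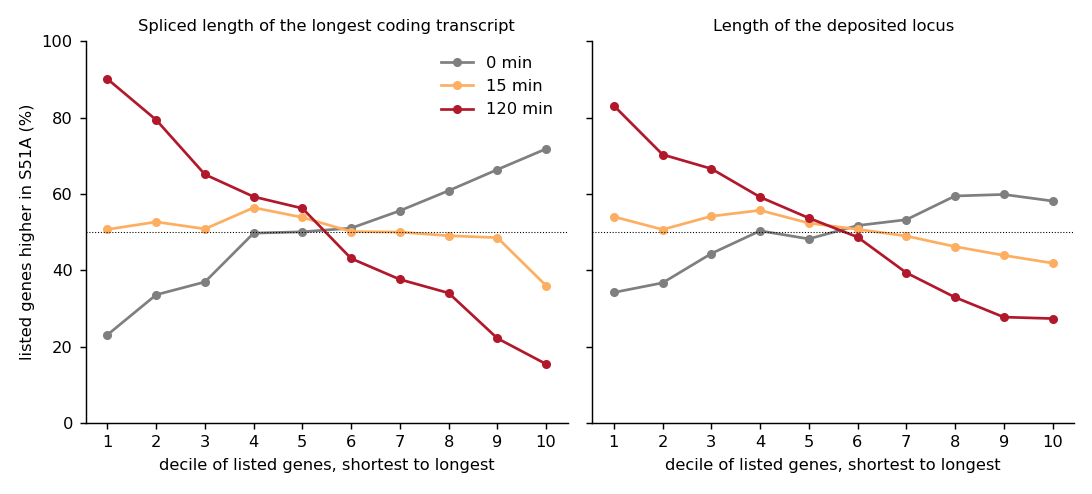
Share of listed genes higher in S51A (y axis, %) by decile of spliced transcript length (left) or of the deposited locus length (right), from shortest to longest, at 0, 15 and 120 min, 1 point per decile, with a dotted line at 50%. The 120 min line falls from 90.1% to 15.4% on the left while the 0 min line climbs from 23.1% to 71.8%.

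Chromosomes differed as well. On chromosome 19, 82.0% of 228 listed genes were higher in S51A at 120 min, on chromosome 3 79.6% of 334, on chromosome 10 77.9% of 312 and on chromosome 14 77.3% of 198. On chromosome 9, 25.0% of 392 listed genes were higher, and on chromosome 11 35.2% of 494. The untreated table had nearly the same shares, 75.8% on chromosome 19, 73.6% on 3, 74.3% on 10, 75.7% on 14 and 28.9% on 9. The median locus length on chromosome 9 was 31.8 kb and that on chromosome 19 16.4 kb, while chromosome 14 had 26.7 kb. Chromosome copy number of the lines was not measured, and its part was not tested. Genes of one class can share a chromosome, so a class and its chromosome cannot always be told apart.

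**Figure D5:**
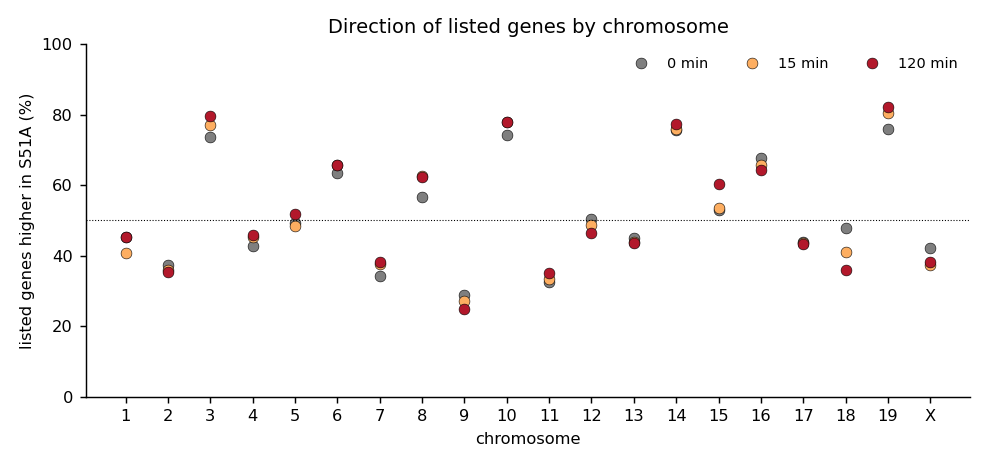
Share of listed genes higher in S51A (y axis, %) on each chromosome (x axis) at 0, 15 and 120 min, 1 point per time, with a dotted line at 50%. Chromosomes 3, 10, 14 and 19 lie above 70% and chromosome 9 below 30% at 0 and 120 min.

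By gene type, 76 of 96 listed long noncoding RNAs were higher in S51A (79.2%), with a median locus of 5.13 kb, against 50.1% of 5717 protein-coding genes. A marker is listed only where it was called different between the lines, so the markers do not check cell identity. Of the labelled cell type, 7 of 12 fibroblast markers were listed, 5 higher and 2 lower. Their summed level was 966 FPKM in WT against 2764 FPKM in S51A. The collagen genes Col1a1 and Col1a2 made up much of that sum, at 202 and 110 FPKM in WT against 695 and 724 FPKM in S51A. No endothelial or muscle marker was listed of 5 each, 1 of 6 epithelial markers was (Krt19, 8.4 FPKM in WT against 21.7 FPKM in S51A), 1 of 5 leukocyte markers (Cd74, 0.790 and 12.1 FPKM) and 2 of 5 neural and glial markers (Tubb3, 15.3 and 72.0 FPKM, and Map2, 7.21 and 2.45 FPKM). Unlisted markers have unknown levels, and the part of other cell types was not tested.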

How the data were processed

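Per the labels' protocols, poly(A) RNA of both lines gave directional libraries with single 75 nt reads. STAR, Cufflinks, Cuffdiff and mm10 appear in the submitters' processing notes, without versions or roles, while the annotation was not given in the sources used here. Per the file headers, the authors' deposited tables, 1 for each of 3 times, hold log2 FPKM per line, the log2 of their ratio and q-values, with the samples of a group combined. A log2 FPKM of -10 was read as 0. Every listed entry has a q-value of at most 0.05, so no p-value or uncalled gene was used. Of each table, 1 numeric column was left unused.

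FPKM values were computed as powers of 2, and folds and log2 ratios (S51A over WT) from them with Python 3.11.15, pandas 2.3.3 and numpy 2.4.6. Entries with 2 symbols (3) or date symbols (11) were left out of lists and names, which leaves 6105. Medians leave out genes at 0 in a line. A class is described by its counts and median beside those of all listed genes. Classes can share members, such as Sesn2 in the ATF4 effector and p53 lists, so their counts are not independent. No test across samples was possible. The counting of classes was tested on simulated data.

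The comparison and the gene lists were chosen with earlier results of these data known. The patterns for ribosomal protein, oxidative phosphorylation and histone genes were trimmed, and a list of mitochondrially encoded genes with no listed member was dropped, after the symbols had been seen. Genes were named by rule: the 12 highest and 12 lowest ratios with at least 10 FPKM in the higher line, the 8 most abundant genes at 0 in each line, up to 6 members of each list by size of ratio with at least 1 FPKM, members on a minority side of 5 or fewer, 10 switching genes per direction with at least 5 FPKM, and 20 fixed genes. Cell type markers are named beyond this rule. Some genes that the rule names are not reported here. Alternatives were a minimum fold of 2, a minimum of 5 FPKM, a q-value of at most 0.001, leaving out genes at 0, a pseudocount of 1 FPKM and subtracting the median of the same tertile of span. Promoters came from RefSeq (GRCm38.p6) and transcripts from GENCODE M21 (GRCm38).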

Additional observations from a re-analysis of the deposited data

How the results depend on the processing

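The tables hold 1 combined value per line and called genes only, so depth, sample spread and uncalled genes limit every value. No paired analysis was possible because the values of the samples are combined, and leaving out single samples was not run for the same reason. Of 301 alternative values, 20 reversed, 37 moved beyond the tolerance used and 244 stayed within it. For a class that tolerance was an interval around its share or median, which is wide where members are few. The cause was not tested except where fewer genes enter by construction.

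With a minimum fold of 2, fewer genes enter: 1620 higher and 1277 lower, 1341 with the same and 15 with the opposite direction at 0 and 120 min, and 1626 and 2 at 15 and 120 min. With a q-value of at most 0.001 these were 1697 and 1764, 2001 and 209, and 2771 and 40. The share higher with a minimum fold of 2 became 80.0% for ATF and C/EBP factors, 57.1% for S phase and mitosis genes and 46.3% for solute carriers, each to the other side of 50%. It was 100% for cytosolic and mitochondrial ribosomal proteins, oxidative phosphorylation and thioredoxins, 88.9% for heat shock chaperones, 48.8% for Zfp genes and 0% for ribosome biogenesis. With a q-value of at most 0.001 it became 40% for elongation factors and for G1 genes, 42.9% for death machinery and 41.0% for solute carriers, each to the other side of 50%. It was 0% for amino acid enzymes and ribosome biogenesis, 100% for cytosolic ribosomal, interferon and thioredoxin genes and 92.3% for NF-kB genes. With at least 5 FPKM, solute carriers stood at 47.8% and Hox genes at 44.4%, both to the other side of 50%, and histones at 90.0%. Without genes at 0, Hox genes stood at 46.2% and histones at 90.0%.

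With a pseudocount of 1 FPKM the median log2 ratio became 0.66 for Hox genes, a change of sign, and 1.49 for interferon-stimulated genes. Minus the median of the same tertile of span, it changed sign for elongation factors (-0.12), mitochondrial ribosomal proteins (-0.005), splicing factors (-0.38), early genes (-0.05), heme and iron genes (-0.17), heat shock chaperones (-0.12), death machinery (-0.10), G1 genes (-0.02) and solute carriers (-0.03). It kept its sign but moved for amino acid enzymes (-1.11), cytosolic tRNA synthetases (-0.96), cytosolic ribosomal proteins (0.10), oxidative phosphorylation (0.31), the proteasome (0.01), interferon-stimulated genes (1.67), thioredoxins (0.31), endoplasmic reticulum chaperones (0.28) and Zfp genes (-0.88). Large losses also fell within the tolerance: the median went from -0.56 to -0.07 for ATF and C/EBP factors, from -0.47 to -0.03 for eIF2 control and from -0.59 to -0.03 for YAP targets. It became 0.03 for lysosome, 0.08 for patterning, 0.18 for p53, 0.12 for glycolysis, 0.11 for sterol, 0.43 for metalloproteinase, 0.73 for NF-kB, 0.74 for histone and -0.32 for initiation factor genes. It grew to -0.97 for glutathione peroxidase and synthesis genes and -1.38 for Hox genes. With the pseudocount it shrank, within the tolerance, to -0.01 for glutathione peroxidase and synthesis genes and -1.09 for MAPK feedback genes.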
